A study of Rattus norvegicus with 2 samples.

Results

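The loop and distal tubule genes followed here are 9 genes whose products mark or serve the nephron beyond the proximal tubule: Umod, Slc12a1, Slc12a3, Kcnj1, Calb1, Egf, Trpm6, Wnk1 and Pvalb. Members were chosen by symbol, and 8 of the 9 were found among the 16484 entries of the urine table that carry an NCBI gene ID. Trpm6, which codes for a magnesium channel of the distal convoluted tubule, was not analysed here. The measurement was FPKM, in which the fragments of a gene are divided by transcript length and library size, in RNA from urine.

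Urine came from Sprague Dawley rats that were 8 weeks of age. In the UUO group (unilateral ureteral obstruction, a model of renal fibrosis) the right ureter was ligated. The group labelled WT had sham surgery, with the ureters left unligated. No genetic change is named in the labels for either group. The kidneys were taken 2 weeks after surgery, and urine was drawn through a ureter catheter before that. It was centrifuged before storage and again before RNA isolation, and the sources used here do not say which fraction gave the RNA. Each group was 1 library, and the number of rats behind a library is not stated. No difference below therefore has a replicate check or a p-value, and each describes 2 libraries. In the table the conditions are called UrRf, read here as UUO, and Urc, read here as WT. The series title, which speaks of renal fibrosis, and the urine lists the study published, where these values stand under UUO and sham headings, both give this reading, on which every direction below rests. Neither column name is a sample title, and with the names exchanged each direction would turn.

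In the thick ascending limb of the loop of Henle, NaCl is taken up from the tubular fluid without water, through the cotransporter NKCC2 (Slc12a1), while the channel ROMK (Kcnj1) returns potassium to the lumen. The distal convoluted tubule takes up further NaCl through the cotransporter NCC (Slc12a3), which the WNK kinases control, and it fine-tunes calcium and magnesium. Cells of these segments also secrete uromodulin and EGF into urine. In RNA from such urine, fewer cells of a type, less RNA per cell and RNA outside cells cannot be told apart.

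In the deposited values most of the detected members stood at like levels in both libraries, a result that depended on the scaling. Umod, Slc12a1, Slc12a3 and Wnk1 differed by less than 2-fold between WT and UUO urine, Calb1 was 2.84-fold higher in UUO urine, Kcnj1 was seen in UUO urine only, and Egf and Pvalb were listed at 0 in both. Summed FPKM of the 8 genes came to 111 in WT and 124 in UUO urine, which is 0.0329% and 0.0457% of the sum over all entries with a gene ID.

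**Figure D1:**
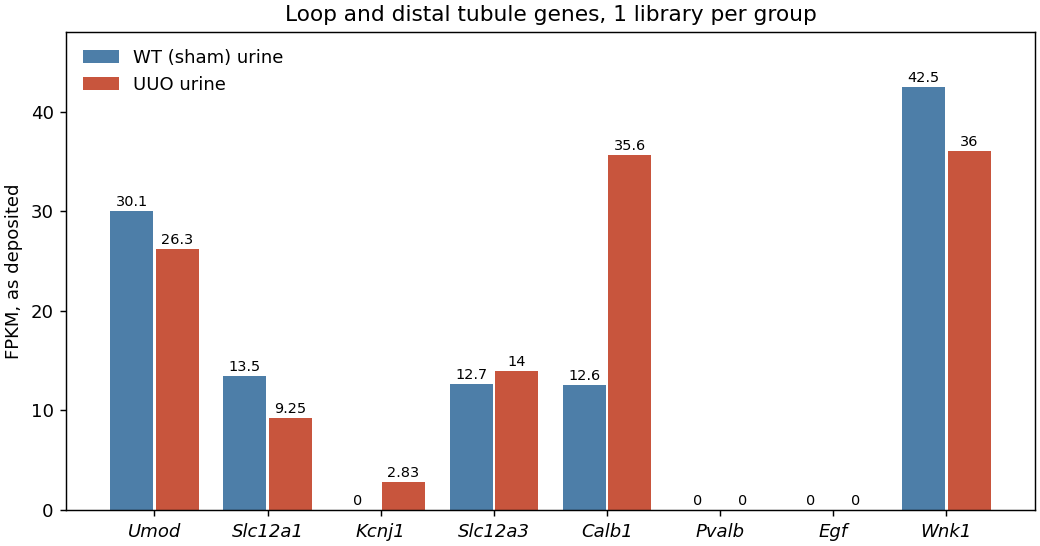
Bars give the deposited FPKM of 8 loop and distal tubule genes in WT (sham) and UUO urine, 1 library each, with no error bars since there are no replicates. Calb1 is the gene whose bars differ most, at 12.6 against 35.6, while Pvalb and Egf are listed at 0 in both libraries.

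Among the thick ascending limb genes, Umod (ID 25128, chromosome 1, 196127931 to 196141766, build rn5 here and for the other loci) codes for uromodulin, a major protein of normal urine. It stood at 30.1 FPKM in WT and 26.3 FPKM in UUO urine, a difference of -0.19 on the log2(FPKM + 1) scale that is used for all differences here. Slc12a1 (ID 25065, chromosome 3, 123945483 to 124022090), the target of loop diuretics, was measured at 13.5 FPKM in WT and 9.25 FPKM in UUO urine, a log2 difference of -0.50. It was the member above 0 in both libraries with the lowest difference. Umod stood 2.23 times above Slc12a1 in WT and 2.84 times in UUO urine. Such a ratio within a library does not depend on how the libraries are scaled against each other.

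Kcnj1 (ID 24521, chromosome 8, 33537154 to 33565063) was listed at 0 in WT urine and reached 2.83 FPKM in UUO urine. A value of 0 in a file without counts can be a failed estimate, so no fold is given. The table marks Kcnj1 as having too few alignments for its test. From steps in the FPKM values of assembled loci, 3 fragments on a transcript of 1000 bp were worth 1.63 FPKM in WT and 1.49 FPKM in UUO urine. Of 79 genes matched by symbol as cytosolic ribosomal protein genes, most of which every cell uses, 21 were also listed at 0 in both libraries. The match by symbol can take in relatives that only some cells express.

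In the distal convoluted tubule, Slc12a3 (ID 54300, chromosome 19, 11084192 to 11122657), the target of thiazide diuretics, gave 12.7 FPKM in WT and 14.0 FPKM in UUO urine, 0.13 apart on the log2 scale. Slc12a1 and Slc12a3 were thus close in WT urine, at a ratio of 1.06, and Slc12a1 was the lower of the pair in UUO urine, at a ratio of 0.661. Without replicates it cannot be said whether this exceeds the spread between libraries.

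Calb1 (ID 83839, chromosome 5, 34217925 to 34243423) codes for calbindin, which buffers and carries calcium through the cells of the distal convoluted and connecting tubule. It stood at 12.6 FPKM in WT and 35.6 FPKM in UUO urine, a log2 difference of 1.43. In WT urine Calb1 was level with Slc12a3, at a ratio of 0.993. In UUO urine it was 2.55 times as high as Slc12a3 and 1.36 times as high as Umod, against 0.418 times Umod in WT urine. The log2 difference of Calb1 ran from 1.02 with a pseudocount of 10 to 4.06 with a rescaling, so it stayed above 1 at each pseudocount and scaling tried.

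Markers of other cells also stood apart between the libraries beside the Calb1 value. All 4 red blood cell genes found were higher in UUO urine, against 25.7% of all genes. Their summed level was 942 FPKM in WT and 56411 FPKM in UUO urine. They were led by the globin genes Hbb (877 and 54777) and Hbb-b1 (64.0 and 1150) and the haem synthesis gene Alas2 (0.317 and 414). Of 6 leukocyte genes past the filter 5 were higher, against 25.7% of all genes. Of these 5 genes, 4 were listed at 0 in WT urine. Only 2 leukocyte genes past the filter were above 0 in both libraries, and 1 was higher, beside 8.11% of all such genes. The summed FPKM of the 8 listed came to 9.61 in WT and 67.6 in UUO urine. S100a8, a neutrophil gene, and Cd68, a macrophage gene, were listed at 0 in WT and at 27.0 and 7.87 in UUO urine, and the lysozyme gene Lyz2 was at 7.55 and 26.5. Cd14 went the other way, at 2.05 and 1.31, and the T cell gene Cd3e was listed at 0 in both libraries. Both were named with their values known. The part of these cells in the Calb1 difference was not tested. Hbb alone held 10.7% of the summed FPKM of all features in UUO and 0.111% in WT urine.

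Pvalb (ID 25269, chromosome 7, 119420234 to 119435227) codes for parvalbumin, a calcium-binding protein of the early distal convoluted tubule and of fast skeletal muscle. It was listed at 0 in both libraries. Skeletal muscle genes were at or near 0 as well, with all 8 listed at 0 in WT urine and a summed FPKM of 0.144 in UUO urine. Acta1, Myh1 and Myh2, the highest of them, reached at most 0.0726. With all entries at their loci added, the highest locus, that of Myh1, was at 0 in WT and 3.83 in UUO urine. Egf (ID 25313, chromosome 2, 74746755 to 74871058), whose precursor protein sits in the luminal membrane of thick ascending limb and distal convoluted tubule cells, was also listed at 0 in both libraries. The 3 entries at its locus were all at 0. Like Kcnj1, both genes are marked in the table as having too few alignments.

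Wnk1 (ID 116477, chromosome 4, 219537306 to 219662981) codes for a kinase that senses chloride and acts through SPAK on NCC and NKCC2. Most cells express it, and a short form without the kinase domain is particular to the distal tubule, so a value per gene cannot be assigned to that segment. Wnk1 had the highest FPKM of the members in both libraries, at 42.5 in WT and 36.0 in UUO urine, -0.23 apart on the log2 scale. The order in WT urine was Wnk1, Umod, Slc12a1, Slc12a3 and Calb1, with the last 3 between 12.6 and 13.5. The order in UUO urine was Wnk1, Calb1, Umod, Slc12a3, Slc12a1 and Kcnj1. With 1 library a group there is no spread against which neighbours in either order could be set.

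Against all 16484 genes with an ID, those listed at or near 0 included, the 5 members above 0 in both libraries lay in the upper part of each. Only 9853 of these genes reached 1 FPKM in either library, so the place of a member among detected genes is lower than the shares below. In WT urine 72.8% of the genes with an ID were below Calb1 and 89.6% below Wnk1, with Umod at 85.6%. In UUO urine the shares were 75.8% for Slc12a1, 83.3% for Slc12a3, 91.7% for Umod, 94.3% for Calb1 and 94.3% for Wnk1, while Kcnj1 was at 55.0%. Egf and Pvalb, listed at 0, have no such place.

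A gene was counted as higher or lower at a log2 difference of 1 or more, among genes that reached 1 FPKM or more in either library. Of the 9 members 6 passed that filter, Kcnj1 only through UUO urine. By this limit 2 members, Calb1 and Kcnj1, were higher and 0 were lower in UUO urine. Across 9853 genes past the filter 25.7% were higher and 36.5% lower. Among genes above 0 in both libraries, which leaves 5 members, only Calb1 was higher and 0 were lower, against 8.11% higher and 44.1% lower of 7784 genes. The split of all genes moved with the scaling, to 34.97% higher and 20.8% lower after rescaling to equal summed FPKM.

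The median log2 difference of the 7784 genes was -0.84, and that of the 5 members was -0.19. Relative to the median gene, Slc12a1 stood 0.34 higher, Wnk1 0.61, Umod 0.65, Slc12a3 0.97 and Calb1 2.27. Of the 7784 genes 61.6% had a lower difference than Slc12a1, 69.0% than Wnk1, 70.3% than Umod, 78.3% than Slc12a3 and 95.3% than Calb1.

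**Figure D2:**
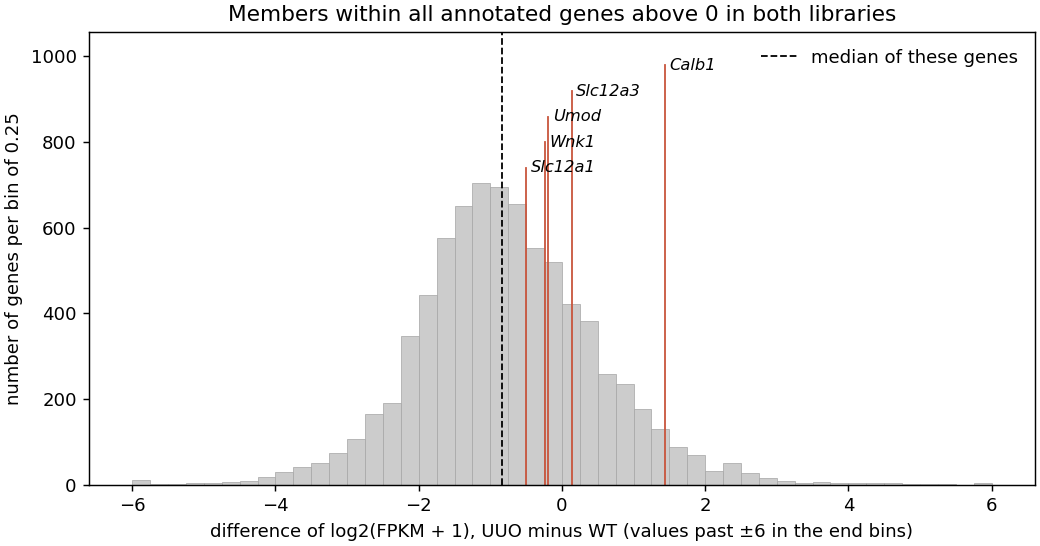
Grey bars count the 7784 genes above 0 in both libraries by their difference of log2(FPKM + 1), UUO minus WT, and the dashed line is their median of -0.84. The vertical lines of the 5 members all lie to its right, from Slc12a1 at -0.50 to Calb1 at 1.43.

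The direction given for single members depended on the scaling. As deposited Umod, Slc12a1 and Wnk1 were lower in UUO urine, but after rescaling to equal summed FPKM their log2 differences were 0.42, 0.08 and 0.38, and by the median ratio of genes 0.68, 0.33 and 0.65. Slc12a3 was at 0.73 and 0.98 under these, and Calb1 at 2.04 and 2.31. Rescaling to the same 75th percentile put all 5 above 2, at 2.05 for Slc12a1 and 4.06 for Calb1, but it also put the median of the 7784 genes at 1.65.

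**Figure D3:**
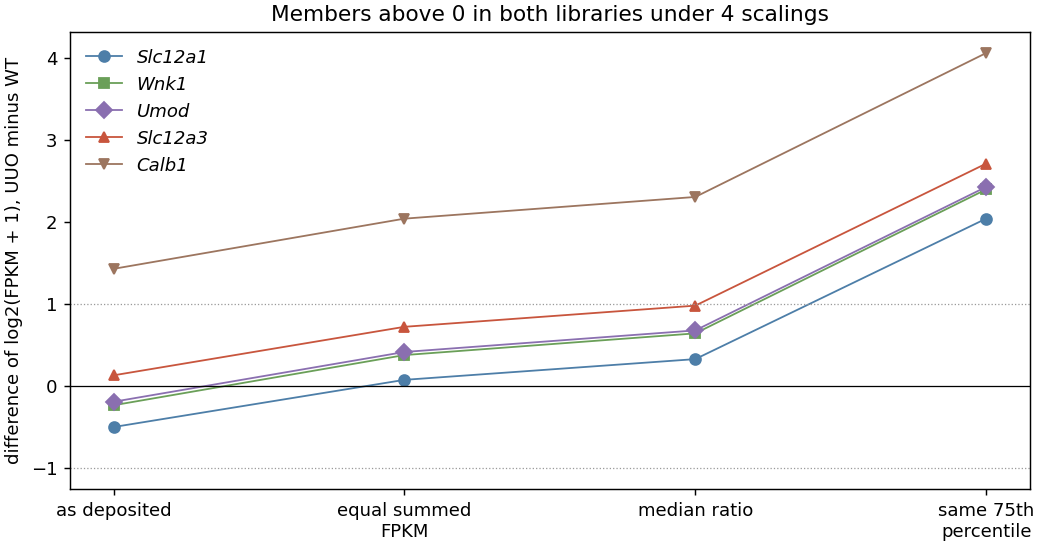
Lines follow the difference of log2(FPKM + 1), UUO minus WT, of 5 members under the deposited values and 3 rescalings, with 0 as a solid line and 1 and -1 dotted. Umod, Slc12a1 and Wnk1 are below 0 only in the deposited values, and Calb1 is above 1 throughout. Each rescaling divides UUO values by a factor below 1, which moves every line upward.

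The table lists several entries at most member loci, noncoding database entries included, and how reads were assigned among them was not tested. For Umod, Slc12a1, Slc12a3 and Calb1 the gene entry held 92.2% or more of the summed FPKM of its locus in both libraries. At the Wnk1 locus, with 12 entries, it held 53.8% in WT and 75.6% in UUO urine. The noncoding entry NONRATT042077 there stood at 36.2 FPKM in WT and 3.27 FPKM in UUO urine. Summed over the locus, Wnk1 was at 78.9 in WT and 47.6 in UUO urine, a log2 difference of -0.72. At the Kcnj1 locus the noncoding entries NONRATG028387 and NONRATT052971 were each at 0.433 in WT urine, so that the locus sum was 0.867 in WT and 5.42 in UUO urine. A noncoding gene and its transcript are listed apart with almost the same value, so a locus sum may count reads more than once.

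**Figure D4:**
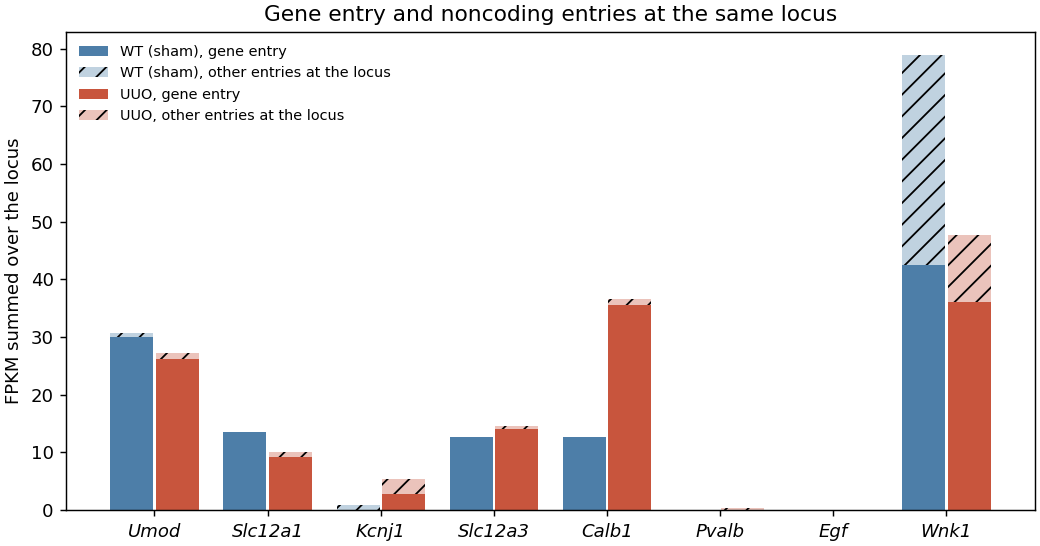
Solid bars are the FPKM of the gene entry and hatched parts that of all other entries at its locus, for WT (sham) and UUO urine. The hatched part is tallest for Wnk1, at 36.5 in WT and 11.6 in UUO urine.

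Of 17 other genes of the thick ascending limb 13 passed the filter, 3 of them higher and 7 lower in UUO urine, beside the 25.7% higher and 36.5% lower of all genes. The highest were the transcription factor gene Foxq1, at 107 FPKM in WT and 177 FPKM in UUO urine, Hpn, the protease that cleaves uromodulin, at 41.8 and 15.1, and the transcription factor gene Irx2, at 23.7 and 1.79. The 3 higher genes, named after their values were seen, were all claudins, which form the paracellular pores of this segment. Cldn19 was at 0.322 in WT and 6.75 in UUO urine, and Cldn10 and Cldn16 were listed at 0 in WT and at 4.73 and 3.13 in UUO urine. Cldn10 and Cldn16 thus passed the filter only through UUO urine, and Cldn16 is marked as having too few alignments. Cldn14, a further claudin gene of the list named likewise, did not pass the filter. Among the 7 lower genes were Irx1 (19.1 and 2.39), the potassium channel gene Kcnj16 (21.0 and 4.53) and Bsnd (8.65 and 1.71), which codes for a subunit of the chloride channels. These too were named with their values known. The median log2 difference of the 11 genes above 0 in both libraries was -1.11, below the -0.84 of all genes. Of these 11 genes 1 was higher and 7 lower, beside 8.11% and 44.1% of all such genes.

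Among 14 genes of distal calcium and magnesium handling past the filter, 4 were higher and 5 lower in UUO urine, shares near the 25.7% and 36.5% of all genes. Their median log2 difference was 0.23, and -0.34 over the 10 above 0 in both libraries, so its sign rests on genes listed at 0 in 1 library. Fxyd2, a regulator of the sodium pump, was highest at 1272 and 720, and the vitamin D receptor gene Vdr was at 24.9 and 5.73. Other lower genes were Kl, Klk1 and Kcna1, the last listed at 0 in UUO urine. The higher genes were Cnnm2, at 0.450 and 3.74, and 3 that were listed at 0 in WT urine: Cnnm4 at 4.61, the calcium channel gene Trpv5 at 1.17 and S100g, which codes for the smaller calbindin, at 3.56 in UUO urine. Trpv5 was below the 1.49 FPKM that 3 fragments on 1000 bp were worth in UUO urine. Cnnm2, Trpv5 and S100g are marked as having too few alignments and Kcna1 as having low data. The genes that carry calcium out across the basolateral membrane, Slc8a1 and Atp2b1, were within 2-fold, at 5.62 and 7.22 and at 6.45 and 8.80. Genes of this paragraph other than Fxyd2 and Vdr were named with their values known.

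Around Wnk1, 10 of the 13 pathway genes past the filter differed by less than 1 on the log2(FPKM + 1) scale, 1 was higher and 2 were lower, against 25.7% and 36.5% of all genes. The ubiquitin ligase gene Nedd4 was at 213 in WT and 115 in UUO urine, the phosphatase gene Ppp1ca at 188 and 129, and Cab39, whose product activates SPAK, at 84.2 and 69.6. The SPAK gene itself, Stk39, was at 27.9 and 25.2, and its relative Oxsr1 at 22.8 and 41.9. Hsd11b2, the enzyme that keeps glucocorticoids from the mineralocorticoid receptor, was the higher gene, at 9.67 and 39.2. The lower genes were Nr3c2, which codes for that receptor, at 16.0 and 2.57, and Wnk2 at 14.7 and 0.137. These 5 genes were named with their values known.

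The other Slc12 cotransporter genes had a median log2 difference of 0.12 over 4 genes above 0 in both libraries, beside -0.50 for Slc12a1 and 0.13 for Slc12a3. Slc12a7 was at 28.7 in WT and 40.1 in UUO urine, Slc12a2 at 17.2 and 21.9 and Slc12a9 at 4.37 and 4.01. Of 5 past the filter 1 was higher and 0 lower, beside 25.7% and 36.5% of all genes. Of the 4 above 0 in both libraries 0 were higher, beside 8.11% of all such genes. Slc12a8 was the higher gene, listed at 0 in WT and at 3.46 in UUO urine. It passed the filter only through UUO urine and is marked as having too few alignments.

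Although Egf was listed at 0, other genes of the EGF system were present. Of 10 past the filter 4 were higher and 0 lower in UUO urine, beside 25.7% and 36.5% of all genes. Over the 8 above 0 in both libraries 2 were higher, beside 8.11% of all such genes, and the median log2 difference was 0.16. The ligand genes Tgfa (1.73 and 6.16), Hbegf and Btc were 3 of the 4. Hbegf and Btc were listed at 0 in WT and at 7.53 and 3.70 in UUO urine. The receptor gene Erbb2 was at 0.205 and 7.68. The receptor gene Egfr was at 10.6 and 9.68, and the genes with the highest FPKM were the ligand Areg (17.5 and 11.5), the receptor Erbb3 (13.6 and 7.35) and the sheddase Adam10 (6.69 and 10.8). Tgfa, Btc, Erbb2 and Egfr were named with their values known. Of the EF-hand relatives of Calb1 and Pvalb, 3 passed the filter, 0 of them higher and 2 lower in UUO urine. The shares of all genes were 25.7% and 36.5%, and 8.11% and 44.1% among genes above 0 in both libraries, as these 3 were. Calm3 was at 385 and 82.3 and Calm2 at 4.79 and 0.933. The calmodulin genes are near-identical in coding sequence and can share reads.

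Of the neighbouring segments, 9 of 10 proximal tubule markers were lower and 0 higher in UUO urine, against 36.5% and 25.7% of all genes, and the median log2 difference was -2.22 over the 9 above 0 in both. Together they reached 244 FPKM in WT and 73.4 FPKM in UUO urine. Slc3a1 was at 72.5 and 47.4, the endocytic receptor gene Lrp2 at 38.7 and 5.995 and Slc13a3 at 33.4 and 1.08. Of 9 collecting duct markers past the filter 3 were higher and 3 lower, near the shares of all genes. The water channel genes Aqp3 and Aqp2 were at 85.1 and 121 and at 50.2 and 35.02, and Slc4a1, which red blood cells also express, was at 0.976 and 70.3. Of 4 podocyte genes past the filter 3 were higher and 1 lower, beside 25.7% and 36.5% of all genes, with a median log2 difference of 1.28. All 4 were above 0 in both libraries, where the shares of all genes were 8.11% and 44.1%. Podxl and Wt1 are marked as having too few alignments. Synpo was at 13.2 and 39.0, Nphs1 at 1.25 and 5.04, Podxl at 0.733 and 2.82 and Wt1 at 3.96 and 1.39, Podxl being named with its values known. With 1 library a group the difference between segments was not tested.

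**Figure D5:**
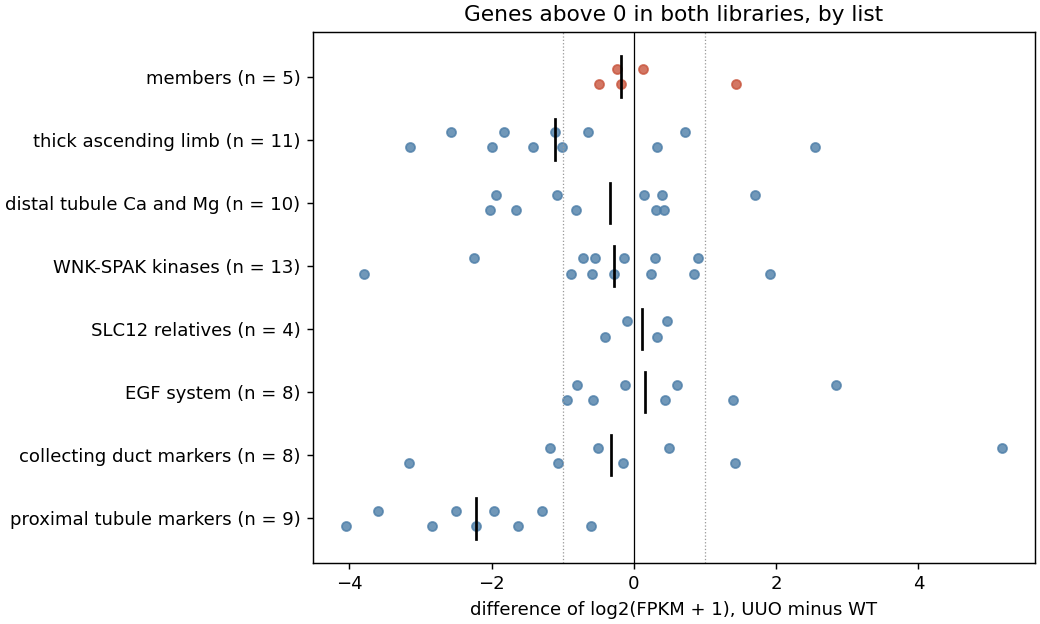
Points are genes above 0 in both libraries and with an FPKM of at least 1 in either, by their difference of log2(FPKM + 1), UUO minus WT, and black bars are medians. The 5 members lie between -0.50 and 1.43, and all 9 proximal tubule markers lie below 0.

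Urothelial genes, the markers of the lining that urine passes, were high in both libraries, with a summed level of 1363 FPKM in WT and 1209 FPKM in UUO urine. Of 7 past the filter 2 were higher and 2 lower, near the shares of all genes. Psca was at 557 and 97.6, and the uroplakin genes Upk3a, Upk1a and Upk1b were at 312 and 466, at 170 and 277 and at 216 and 136. Upk1b was named with its values known, as were Krt5, listed at 0 in WT and at 51.8 in UUO urine, and Krt20, at 26.4 and 12.5.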

How the data were processed

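RNA of 1 WT and 1 UUO urine library was analysed from a table in the layout of a Cuffdiff comparison. The submitters' processing notes name Bowtie2 2.0.6, TopHat2 2.0.9, Cufflinks 2.1.1, Cuffdiff 2.1.1 and the build rn5. The authors deposited 1 FPKM value for each feature in each library. The sources used here do not say by which library total it was scaled. The table's columns of fold changes, test statistics, p-values and q-values were not used. Its status marks were read only for whether a gene had enough alignments.

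Symbols were matched by gene ID to RefSeq (GRCr8) for 16329 of 16484 IDs, and no coordinate of that assembly was used. Differences are log2(FPKM + 1), UUO minus WT, with a pseudocount of 1, which understates changes of low genes. Fragment steps were fitted on assembled loci alone at their locus and 400 to 1200 bp long, with values within 0.1 of a whole fragment for 100% of 88 loci in WT and 99.9% of 3421 in UUO urine, at normalising totals of 2100000 and 2436000 fragments. The step fit was run on simulated whole-fragment values, and the call rule on WT values with known folds put in. Neither simulation held noise, so they check the code and do not show how reliable the procedures are on these data. Python 3.11.15, numpy 2.4.6 and pandas 2.3.3 were used.

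Since a group is a single library, no test was made. Besides the members, up to 3 genes with the highest FPKM of each of 6 pathway and 7 marker lists were named, and pathway genes listed at 0 in 1 library with an FPKM of at least 5 in the other. Listed genes without an entry (such as Klhl3, Epgn and Upk3b) were not analysed here, and the values of a few others are not reported here, though list counts and medians include them. The members and lists were chosen with earlier results of these data known. Alternatives were 2 pseudocounts, 3 rescalings, a 4-fold limit, 2 filters, sums per locus and, chosen after seeing the data, genes above 0 in both libraries and leaving out Wnk1.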

Additional observations from a re-analysis of the deposited data

Results flagged for a closer look

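Noncoding entries at members' loci lie outside the comparisons of the genes themselves, and 3 of them had an FPKM of at least 1 in UUO urine and a lower value in WT urine. At the Wnk1 locus NONRATT042074 was at an FPKM of 6.12 and NONRATT042075 at 1.36 in UUO urine, and at the Kcnj1 locus NONRATT052972 was at 1.49. All 3 were listed at 0 in WT urine and are marked in the table as having low data.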

How the results depend on the processing

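No paired analysis was possible because WT and UUO urine are 1 library each. The 0 members lower in UUO urine stayed at 0 under every alternative tried. Only the pseudocount of 0.1 and the sums per locus could have added a lower member, so the other alternatives are no check on this count. A pseudocount of 10 left 1 member higher, against 3.76% of all genes higher and 18.0% lower. Rescaling to equal summed FPKM put the median of the members at 0.57 and 20.8% of genes lower. The median ratio gave a median of 0.83, with 39.8% of genes higher and 15.6% lower, and the same 75th percentile gave 6 members higher, a median of 2.57, and 79.2% and 3.60% of genes. Rescalings divide UUO values by 1 factor below 1, which moves every difference upward. A 4-fold limit left 0 members higher, with 10.7% and 12.03% of genes. A limit of FPKM 5 left 1 member and 14.0% of genes higher. With no filter the median was 0 over 8 members, and 15.4% and 21.8% of genes were counted. Sums per locus put the median at 0.0083. Above 0 in both libraries 1 member and 8.11% of genes were higher, and without Wnk1 the median was 0.13. The median of the members past the filter was -0.027 as deposited. The thick ascending limb median turned to 0.15 by the median ratio, 1.82 by the 75th percentile and 0 with no filter, and that of the EF-hand relatives to 1.37 by the 75th percentile and 0.61 per locus. By the 75th percentile the log2 differences of Calm2 (0.26), Calm3 (0.44), Hpn (1.17), Psca (0.15), Vdr (0.53) and Wt1 (0.98) turned to above 0. Under this rescaling the median of genes above 0 in both libraries was 1.65. Of 30 recomputed differences of members 20 kept their sign and their side of 1. Depth limits what the zeros show: 3 fragments on 1000 bp are worth an FPKM of 1.63 in WT urine, against the 2.83 of Kcnj1 in UUO urine.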
